A study of Schizosaccharomyces pombe with 21 samples.

Results

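The comparison was between fission yeast cells carrying the missense allele kcs1-L338R and cells carrying kcs1-WT, sequenced from 3 cultures of each. The members are the L338R and kcs1-WT libraries of the kcs1 experiment, which are 6 of the 21 libraries of the series. Both are haploid h+ strains in which the chromosomal gene was replaced by a marked copy (kcs1-L338R::kanMX or kcs1-WT::kanMX), driven by the endogenous kcs1 promoter and followed by an ADH1 terminator and the kanMX cassette. The replacement was made in a diploid that was then sporulated, so the cassette and the terminator are shared by mutant and control. The paper lists mutant alleles of leu1, ura4, his3 and ade6 in the background of all its strains. Cells were in log phase in YES, a rich medium in which phosphate is plentiful. The other groups of that experiment, which entered the same fit, were R332T and E834K, other missense alleles of kcs1 built in the same way. Each allele is represented by 1 strain, so the effect of the allele and any other difference between strains cannot be told apart.

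Kcs1 is an inositol polyphosphate kinase, and together with the other inositol pyrophosphate kinase, Asp1, it makes the inositol pyrophosphates, signalling molecules that report on cellular phosphate. In fission yeast the acid phosphatase gene pho1 and the transporter genes pho84 and tgp1 form the PHO regulon, which is kept low when phosphate is plentiful by transcription of upstream long noncoding RNAs (lncRNAs) across the promoters. Early termination of the lncRNA frees the promoter, and inositol pyrophosphates are known to promote such termination. The question asked of the L338R strain was how the allele changes RNA levels across the genome.

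Values below are normalized counts, that is reads per locus divided by the effective library size and brought to the mean depth of the 12 kcs1 libraries. They are not divided by gene length, so levels are compared between groups and not between genes. Total counts ran from 22124925 to 25808018 in the 6 libraries, and coding loci took 99.17% to 99.22% of them. L338R replicate 1 stood apart from replicates 2 and 3, with a score of -30.45 on the first principal component (33.7% of the variance) against 1.96 and -7.31. Its values were lower than those of the other L338R replicates by a median of 0.39 (log2) over 71 ribosome biogenesis genes and 0.15 over noncoding loci, against a median of 0.00 over all loci tested. Counts were therefore also taken without it, but they are printed below for some gene lists only. Lists shown without such a value could still move. Without that replicate, 13 proteasome genes were higher in place of 10, and 7 hexose transport and glucose repressed genes in place of 8. The targeted gene kcs1 had 2185, 1855 and 2171 normalized counts in L338R and 2110, 2297 and 2222 in kcs1-WT. Those groups overlapped (log2 fold change -0.09, SE 0.06, edgeR adjusted p = 0.3195), and a whole-gene count does not read a missense mutation. The label h+ denotes P cells. The P cell genes map2 and map1 averaged 150 and 49.8 in L338R, against 144 and 42.6 in kcs1-WT, and the M cell gene mat1-Mc had no count in either group. The M-factor genes mfm1, mfm2 and mfm3 did have counts in both groups, given with mei2 below. These markers alone therefore do not settle the cell type.

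Of 6093 loci tested (4979 coding and 1114 noncoding), 667 were higher and 698 lower in L338R at an adjusted p of at most 0.05 in the edgeR quasi-likelihood test, which is 10.9% and 11.5%. The gene list counts below are to be read against these shares. As the lists were written with earlier results of these data known, their counts may owe part of their size to that choice. Among coding loci 549 were higher (11%) and 653 lower (13.1%), and among noncoding loci 118 were higher (10.6%) and 45 lower (4.04%). The noncoding calls thus ran mostly upward and the coding calls slightly downward. The median log2 fold change was -0.05 over coding loci, 0.14 over noncoding loci and -0.04 over all loci. These counts moved with single libraries. Without kcs1-WT replicate 2 there were 444 loci higher, and without kcs1-WT replicate 1 there were 449 lower, while the noncoding loci lower numbered 28, 28 and 22 without kcs1-WT replicates 1, 2 and 3. Without L338R replicate 1, 799 loci were higher and 972 lower, of which 156 and 38 were noncoding. The upward lean of the noncoding calls was not particular to L338R. Over the same kcs1-WT libraries, 199 noncoding loci were higher and 50 lower in R332T, and 237 were higher and 26 lower in E834K. In the direct contrast with R332T, 88 noncoding loci were higher in L338R and 128 lower.

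**Figure D1:**
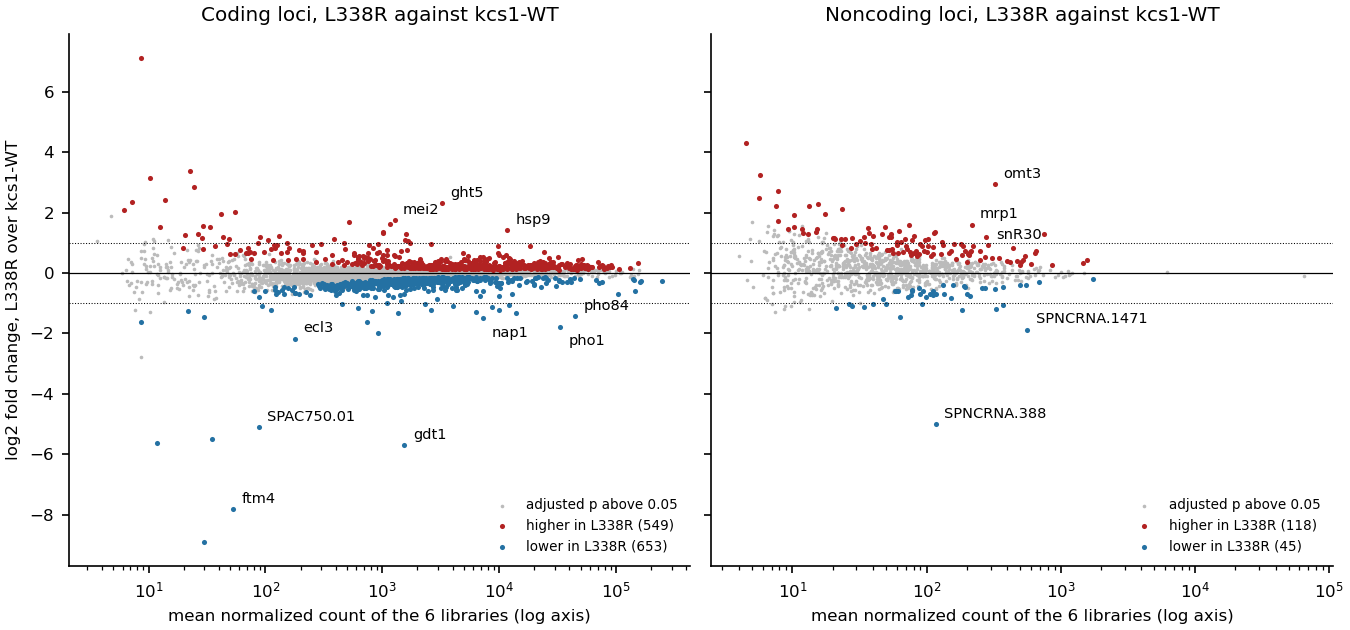
Log2 fold change of L338R over kcs1-WT (vertical axis) against the mean normalized count of the 6 libraries (horizontal log axis) for each coding locus (left) and noncoding locus (right). Red points are higher and blue points lower in L338R at an adjusted p of at most 0.05, grey points did not pass, and dotted lines mark a 2-fold change. Of the coloured coding points, 516 of 549 higher and 624 of 653 lower lie between the dotted lines, while 51 of 118 noncoding loci that were higher reach 2-fold. Apart from gdt1, points beyond 5 log2 units are loci with few or no counts in 1 group, whose fitted fold depends on the prior count.

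Most coding changes were small. The coding loci that were higher had a median change of 1.18-fold, and 464 of the 549 changed less than 1.5-fold, 52 between 1.5-fold and 2-fold and 33 at least 2-fold. Those that were lower had a median change of 1.23-fold, with 592 under 1.5-fold, 32 between 1.5-fold and 2-fold and 29 at least 2-fold. Changes under 2-fold therefore made up 94% of the coding increases and 95.6% of the coding decreases. Noncoding changes were larger, with a median of 1.91-fold for the 118 higher and 1.61-fold for the 45 lower. Depth differed as well, as 39 of the 51 noncoding loci that were at least 2-fold higher had under 100 normalized counts, where a small change is hard to detect.

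With the study's thresholds (adjusted p of at most 0.05, at least 2-fold, and a mean of at least 100 in the group where the gene is high), 16 coding genes were called higher in L338R (0.321%) and 23 lower (0.462%). The L338R and kcs1-WT replicates did not overlap for any of these 39 genes, which their choice by the same libraries nearly fixes, and 33.6% of all loci tested had no overlap. All 39 passed the adjusted p in each of the 13 alternative settings tried, and 9 of them fell under 2-fold in at least 1 setting (urg1, urg2, mfs1, mfs2, SPAC11D3.19, SPAC23D3.05c, fip1, cnp3 and tsp0). The genes called higher were ght5, mei2, SPAC15E1.02c, ssa1, hsp9, SPAC637.03, rtc3, SPCC70.08c, srx1, ght1, lsd90, SPAC11D3.19, pbi2, aca1, fip1 and tsp0. Another 17 coding genes were at least 2-fold higher and 6 at least 2-fold lower with means under 100.

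Genes of phosphate acquisition were among those that fell. All 8 listed genes were lower in L338R, 6 of them at least 2-fold, with a median log2 fold change of -1.53. The list was written with earlier results of these data known, so that count describes its members and is not independent support. pho1 (SPBP4G3.02), which encodes an acid phosphatase of the cell surface, had 16251, 13398 and 15399 normalized counts in L338R, against 50749, 51102 and 52301 in kcs1-WT. No library of one group came near the other, and the decrease was 3.42-fold (log2 fold change -1.77, SE 0.07, edgeR adjusted p = 1.458e-09). pho84 (SPBC8E4.01c), the inorganic phosphate transporter, had 25489, 22057 and 24698 in L338R, against 62551, 66674 and 65992 in kcs1-WT. tgp1 (SPBC1271.09), the glycerophosphodiester transporter, had 371, 331 and 392 in L338R, against 1097, 999 and 1276 in kcs1-WT. Both transporter genes thus fell, pho84 by 1.43 and tgp1 by 1.62 on the log2 scale.

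Genes outside the 3-gene regulon fell with it. ecl3 (SPBC8E4.12c), a small gene of the family known for extending chronological lifespan when overexpressed, had 57.1, 72.0 and 67.2 normalized counts in L338R, against 275, 316 and 293 in kcs1-WT (log2 fold change -2.17, SE 0.18). SPBPB2B2.06c, which encodes an extracellular nucleotidase, averaged 370 ± 34.2 in L338R and 1471 ± 230 in kcs1-WT (SD, n = 3 each; log2 fold change -1.99). SPAC1039.02, a gene of the same family, averaged 8007 ± 693 in L338R and 19951 ± 2512 in kcs1-WT (log2 fold change -1.32). The transporter genes pho841 and pho842 fell less, by 0.57 and 0.22 on the log2 scale, the smaller at an edgeR adjusted p of 0.04203. The call of pho842 was lost in 7 of 13 alternatives, which were L338R and kcs1-WT alone, DESeq2 size factors, and the omission of L338R replicate 2 or 3 or of any 1 kcs1-WT replicate. As the RNA was bulk, a smaller share of expressing cells and less RNA per cell cannot be told apart here or below.

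Of the 3 lncRNAs that run over these promoters, 2 rose and the pho1 lncRNA did not pass. nc-tgp1, upstream of tgp1, had 294, 308 and 361 normalized counts in L338R, against 224, 210 and 230 in kcs1-WT, and rose (log2 fold change 0.54, SE 0.13, edgeR adjusted p = 0.007079). prt2, upstream of pho84, had 453, 420 and 490 in L338R, against 317, 358 and 351 in kcs1-WT, and also rose (log2 fold change 0.41, edgeR adjusted p = 0.01879). Neither lncRNA overlapped between groups, but prt2 did not pass without L338R replicate 3 (0.35) or kcs1-WT replicate 1 (0.36), nor with the L338R and kcs1-WT libraries alone (0.42). The pho1 lncRNA prt, named nc-pho1 in the annotation, was read at 29.1, 25.8 and 20.4 in L338R, against 31.8, 40.6 and 24.5 in kcs1-WT, which overlapped (log2 fold change -0.36, SE 0.29, edgeR adjusted p = 0.4157). Whole-locus counts do not show where along its length an lncRNA ended.

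Genes that regulate phosphate supply moved little. Of 7 tested regulator and polyphosphate genes, 4 were lower and 0 higher in L338R, with a median log2 fold change of -0.15. The vacuolar polyphosphate synthesis genes vtc4 and vtc2 fell by 0.29 and 0.24 on the log2 scale, and nrf1 of the same complex by 0.15. plt1, a phosphate transporter gene, fell by 0.29. Of 16 inositol pyrophosphate and phosphoinositide genes, 4 were lower and 0 higher (8 lower without L338R replicate 1, and 2 without kcs1-WT replicate 2). asp1, the partner kinase gene, had 1138, 1287 and 1075 normalized counts in L338R and 1476, 1437 and 1419 in kcs1-WT (log2 fold change -0.31, SE 0.07, edgeR adjusted p = 0.004789). ipk1, which encodes the kinase that makes the substrate of Kcs1, fell by 0.37, and the phospholipase C gene plc1 by 0.34. Of 19 genes of 3′ processing and termination, 3 were lower (15.8%) and 1 higher (5.26%), with a median of -0.18, against 11.5% and 10.9% over all loci. The members that passed are described singly, and the poly(A) site factor gene seb1 fell by 0.27 and the cleavage factor genes ctf1 and cft2 by 0.31 and 0.41, while dis2, the PP1 phosphatase gene, rose by 0.20. The number lower in that list was 7 without L338R replicate 1 and also 7 without L338R replicate 2.

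**Figure D2:**
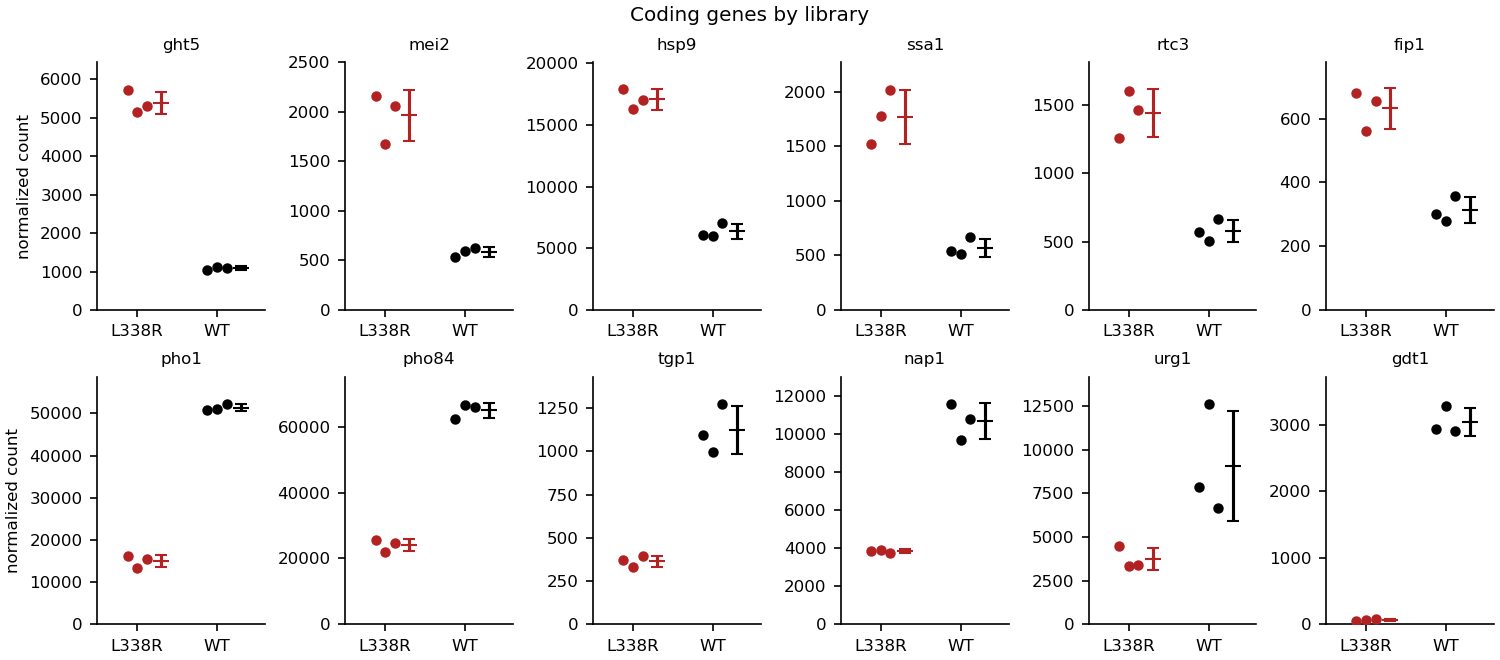
Normalized counts of 12 coding genes in each L338R culture (red, left) and each kcs1-WT culture (black, right), with the mean ± SD beside the points (n = 3 each) and every vertical axis starting at 0. The top row holds genes called higher in L338R and the bottom row genes called lower, and no gene shown overlaps between groups. kcs1-WT replicate 2 lies at 12618 for urg1, above the other kcs1-WT cultures at 7881 and 6641.

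The gene with the largest increase among those called was ght5 (SPCC1235.14), which encodes the high-affinity glucose and fructose transporter. It had 5718, 5162 and 5302 normalized counts in L338R, against 1029, 1127 and 1101 in kcs1-WT. All L338R cultures were near 5 times the control (log2 fold change 2.31, SE 0.20, edgeR adjusted p = 2.348e-06). Of the windows along ght5, 70.66% are unique in the reference genome, since hexose transporter genes resemble each other. Of 20 hexose transport and glucose repressed genes, 8 were higher (40%) and 3 lower (15%), with a median log2 fold change of 0.20. The shares over all loci were 10.9% and 11.5%. The related ght1 and the gluconate transporter gene ght3 rose by 1.20 and 0.66, at means of 124 and 97.9 in L338R, whereas ght2, another hexose transporter gene, fell by 0.56. The rise in this list also took in genes of glycerol use, with dak2 (dihydroxyacetone kinase) at 0.61 and gut2 (glycerol-3-phosphate dehydrogenase) at 0.56. The glucose repressor gene scr1 and the activator gene rst2 rose by 0.47 and 0.34.

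mei2 (SPAC27D7.03c), which encodes the RNA-binding protein that drives entry into meiosis and is normally held down in growing cells, had 2162, 1671 and 2063 normalized counts in L338R, against 531, 594 and 626 in kcs1-WT. The increase was 3.37-fold (log2 fold change 1.75, SE 0.10, edgeR adjusted p = 3.57e-08), with no overlap. Other genes of the switch to mating moved less. ste11, the transcription factor gene that acts upstream of mei2, rose by 0.57 (753 ± 83.5 in L338R and 508 ± 16.7 in kcs1-WT), and spk1, the pheromone MAP kinase gene, rose by 0.66. pat1, the kinase gene whose product restrains Mei2, rose by 0.34, and msa1, an RNA-binding inhibitor of mating genes, fell by 0.99. In the wider lists 3 of 15 mating genes were higher (20%) and 1 lower (6.67%). Of 17 meiosis genes, 2 were higher and 2 lower, 11.8% each, close to the 10.9% and 11.5% over all loci. With each library left out in turn the meiosis list had 1 to 2 genes higher and 1 to 3 lower. Most of its genes did not pass, like most loci tested. The M-factor gene mfm1 was at 11.4, 10.7 and 8.14 in L338R, against 3.86, 2.03 and 0.942 in kcs1-WT, while mfm2 and mfm3 did not pass, at 55.2 and 19.3 in L338R against 68.2 and 23.3 in kcs1-WT.

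Many stress genes were higher in L338R. Of 31 core environmental stress genes, 21 were higher and 2 lower in L338R, with a median log2 fold change of 0.47, against 10.9%, 11.5% and -0.04 over all loci. This list too was written with earlier results of these data known, which may raise its share. The counts were 22 and 2 without L338R replicate 1. hsp9 (SPAP8A3.04c), a small heat shock protein gene, had 17946, 16286 and 17034 normalized counts in L338R, against 6051, 6006 and 7089 in kcs1-WT (log2 fold change 1.42, SE 0.08, edgeR adjusted p = 3.57e-08). rtc3 (SPBC21C3.19), of the SBDS family, had 1257, 1605 and 1467 in L338R, against 569, 503 and 662 in kcs1-WT. Both were more than 2-fold higher with no overlap. Further members of that list rose at least 2-fold, among them pbi2 (proteinase B inhibitor, 1.10), lsd90 (1.12), aca1 (an azetidine carboxylate acetyltransferase, 1.06) and the uncharacterized SPAC637.03 (1.37) and SPAC15E1.02c (1.70). Trehalose metabolism genes rose under 2-fold, tps1 (trehalose phosphate synthase) by 0.67 and ntp1 (neutral trehalase) by 0.39. ctt1 (catalase) rose by 0.66 and gpx1 (glutathione peroxidase) by 0.38, and atf1, the transcription factor gene of the stress MAP kinase pathway, by 0.28. The members that fell were pyp2, a phosphatase gene that limits that pathway, by 0.47, and rds1 by 0.29.

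Heat shock and chaperone genes changed in part. Of 18 tested, 6 were higher (33.3%) and 0 lower, with a median of 0.20, and the number higher was 10 without L338R replicate 1. ssa1 (SPAC13G7.02c), an Hsp70 gene, had 1517, 1781 and 2012 normalized counts in L338R, against 538, 509 and 665 in kcs1-WT (log2 fold change 1.63, SE 0.13). hsp16 and hsp104 rose by 0.75 and 0.44, and the mitochondrial chaperonin genes hsp10 and mcp60 by 0.37 and 0.26. hsp16 and hsp104 stand in the stress list as well. Of 14 oxidative stress genes of the Pap1 transcription factor, 9 were higher (64.3%) and 2 lower (14.3%), with a median of 0.24. SPCC70.08c, annotated as a methyltransferase, rose by 1.29 and obr1, annotated as a quinone dehydrogenase gene, by 0.53. The thioredoxin gene trx1 rose by 0.27 and the peroxiredoxin gene tpx1 by 0.20. bfr1, the brefeldin A efflux pump gene, went the other way and fell by 0.74.

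Some iron uptake genes were among the increases. Of 10 iron uptake genes tested, 5 were higher (50%) and 1 lower (10%) in L338R, with a median of 0.33. When any 1 library was left out, 11 genes passed the filter and the median lay between 0.55 and 0.67. The iron permease gene fip1 (SPAC1F7.07c) had 681, 560 and 655 normalized counts in L338R, against 301, 280 and 358 in kcs1-WT, a 2.02-fold increase that lay at the fold threshold. The partner oxidase gene fio1 rose by 0.75, the ferric reductase gene frp1 by 0.99 and the siderophore transporter gene str1 by 0.62. srx1, a sulfiredoxin gene that stands in both this list and that of Pap1, rose by 1.25. The ABC transporter gene abc3 fell by 0.19 at an edgeR adjusted p of 0.04929, and no gene of the list was lower with DESeq2. Among 21 iron regulator and iron using genes 9 were higher (42.9%, or 5 genes with the L338R and kcs1-WT libraries alone) and 2 lower (9.52%). The median was 0.07, and 10 did not pass. Those higher included the iron-sulfur assembly genes isa1 (0.47) and isu1 (0.37) and the aconitase gene aco1 (0.37). Of 9 zinc and copper genes 2 were higher and 3 lower (1 without kcs1-WT replicate 1 and 1 without kcs1-WT replicate 2), with the metallothionein gene zym1 up by 0.70 and the zinc importer gene zrt1 down (log2 fold change -0.74).

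Several genes called lower were outside the phosphate lists. nap1 (SPCC364.06), a chaperone gene for histones H2A and H2B, had 3851, 3930 and 3723 normalized counts in L338R, against 11582, 9684 and 10800 in kcs1-WT. The decrease was 2.79-fold (log2 fold change -1.48, SE 0.06, edgeR adjusted p = 1.458e-09), with a spread in L338R of only 104 (SD). Of 17 histone and histone chaperone genes, 5 were higher and 4 lower, with the H2A genes hta1 and hta2 up by 0.30 and 0.25 and the H2B gene htb1 down (log2 fold change -0.13). Only 2 were higher without L338R replicate 3 or without kcs1-WT replicates 1 or 2, and 2 were lower without L338R replicate 2 or any 1 kcs1-WT replicate. cnp3, which encodes the CENP-C centromere protein, had 276, 422 and 455 in L338R, against 721, 983 and 843 in kcs1-WT. Its fall was 1.14 on the log2 scale and lost the 2-fold size without L338R replicate 1, at -0.95.

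The uracil regulated genes urg1, urg2 and urg3 fell. urg1 (SPAC1002.19), annotated as GTP cyclohydrolase II, had 4473, 3349 and 3415 normalized counts in L338R, against 7881, 12618 and 6641 in kcs1-WT (log2 fold change -1.27, SE 0.20). urg2, a putative uracil phosphoribosyltransferase gene, averaged 5555 ± 709 in L338R and 11989 ± 3428 in kcs1-WT (log2 fold change -1.11), and urg3 fell by 0.59. kcs1-WT replicate 2 was the highest for both called genes, and without it the log2 fold changes were -0.96 for urg1 and -0.86 for urg2. The 6 other pyrimidine genes of that list did not pass. ura4 had no count in any of the 12 libraries, and the paper lists a mutant ura4 allele in all its strains.

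Surface and transport genes made up much of the rest. Of 7 polyamine and multidrug transporter genes, 5 were lower and 1 higher, with a median of -0.74. mfs3, a spermidine family transporter gene, had 5956, 5595 and 6512 normalized counts in L338R, against 12822, 16411 and 13189 in kcs1-WT (log2 fold change -1.23), and mfs1 and mfs2 fell by 1.04 and 1.01. The gene that rose was spe1, which encodes the ornithine decarboxylase of polyamine synthesis, by 0.38. isp4, the oligopeptide transporter gene, had 1589, 1475 and 1615 in L338R, against 3333, 4683 and 2994 in kcs1-WT. Of 15 flocculin genes and regulators, 6 were lower (40%) and 1 higher (6.67%), with a median of -0.27. The adhesin-like genes pfl3, pfl8, pfl7 and pfl5 fell by 1.32, 0.72, 0.53 and 0.45, as did the flocculin activator gene mbx2 by 0.40, while pfl9 rose by 0.84. The list is mixed in role, since lkh1, a kinase gene that restrains flocculation, fell too, by 0.32. pfl9 did not pass without L338R replicate 2 or 3 or without kcs1-WT replicate 2 or 3. Other loci called lower were SPBC25B2.08, a protein specific to S. pombe (-1.26), SPBC3H7.05c, of a membrane bound acyltransferase family (-1.09), and SPBPB7E8.01, with a predicted GPI anchor (-1.05). The transporter pseudogene SPBPB10D8.03 and the alcohol dehydrogenase pseudogene SPAC23D3.05c, both counted as coding, fell by 1.24 and 1.08.

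The largest decreases lay close together near 1 end of chromosome I. gdt1 (SPAC186.05c), the 13th coding gene from that end, had 41.6, 62.3 and 71.3 normalized counts in L338R, against 2938, 3278 and 2903 in kcs1-WT. The decrease was 51.9-fold (log2 fold change -5.70, SE 0.37, edgeR adjusted p = 1.071e-07). Its neighbours had few or no reads in L338R. SPAC750.01 (8th from the end) was at 7.27, 1.07 and 6.11 in L338R, against 158, 145 and 210 in kcs1-WT, SPAC186.06 averaged 1.36 in L338R and 68.4 in kcs1-WT, and SPAC186.04c averaged 0.358 in L338R and 23.2 in kcs1-WT. ftm4, 4th from the end, had 1.04, 0 and 0 in L338R, against 110, 101 and 107 in kcs1-WT, and SPAC750.06c, 3rd from the end, was listed at 0 in all L338R libraries, against a mean of 59.5 in kcs1-WT. Only 7.79% of the windows of ftm4 and 9.56% of those of SPAC750.06c are unique in the reference genome, so reads may be shared with copies at other chromosome ends. For SPAC750.01 the share is 67.46%, so part of its reads may be shared too. In contrast, gdt1, SPAC186.06 and SPAC186.04c are unique throughout. SPAC186.02c, on the inner side of gdt1, went the other way, with 27.0, 7.52 and 17.3 in L338R and 0 in every kcs1-WT library. No fold is given against groups at 0.

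Genes near chromosome ends passed in both directions. Among the 98 tested of the 160 coding genes nearest the ends of chromosomes I and II, 21 were higher and 23 lower in L338R, shares of 21.4% and 23.5% against 11% and 13.1% of all coding loci, with a median of -0.06. Increases in that list included tlh2, a telomere-linked helicase gene, at 87.8 in L338R against 21.2 in kcs1-WT, although only 6.77% of its windows are unique. Both pho1 and gdt1 belong to it.

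Central carbon genes shifted by less than 2-fold in both directions. Of 15 glycolysis genes, 8 were lower (53.3%) and 1 higher (6.67%), with a median of -0.21. The number higher was 3 without L338R replicate 2, and the number lower was 4 without kcs1-WT replicate 1 and also 4 without kcs1-WT replicate 3. tdh1, a glyceraldehyde-3-phosphate dehydrogenase gene, had 77345, 77384 and 86625 normalized counts in L338R, against 129322, 118149 and 140370 in kcs1-WT (log2 fold change -0.68, SE 0.07). The enolase gene eno101 fell by 0.60 and the phosphofructokinase gene pfk1 by 0.31, while the minor enolase gene eno102 rose by 0.94, at means of 156 in L338R and 81.5 in kcs1-WT. Some single genes of mitochondrial and nitrogen metabolism also passed. cit1 (citrate synthase) rose by 0.61 and mmf1, a mitochondrial matrix protein gene, by 0.90. gdh1, the NADP-specific glutamate dehydrogenase gene, had 30758, 28251 and 31704 in L338R, against 18665, 18313 and 19120 in kcs1-WT (log2 fold change 0.69, SE 0.05, edgeR adjusted p = 1.167e-07). Of 53 nuclear genes of the respiratory chain, 13 were higher (24.5%) and 0 lower, with a median of 0.06. That number was 7 without L338R replicate 3, 6 without kcs1-WT replicate 1 and 6 without kcs1-WT replicate 2. Of 35 amino acid synthesis genes, 14 were higher (40%) and 2 lower (5.71%), with a median of 0.12, led by the arginine genes arg12 (0.49), arg5 (0.46) and arg3 (0.40). The number lower in that list was 5 without L338R replicate 1, 0 without kcs1-WT replicate 1, 0 without kcs1-WT replicate 2 and 6 with a replicate block.

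Other small changes that passed with the smallest p values named diverse functions. Among genes under 2-fold higher were the aldo-keto reductase genes SPAC19G12.09 (0.96) and SPAC26F1.07 (0.61), the oxidoreductase gene SPAC26H5.09c (0.92), and ubp11, a ubiquitin hydrolase gene (0.84). Among those lower were cbf12 (a transcription factor gene, -0.93), the4 (an acyl-CoA thioesterase gene, -0.84), eng1 (the glucanase gene of cell separation, -0.68), adg2 (-0.49) and mae1 (the malate and succinate importer gene, -0.45). In ergosterol synthesis 4 of 21 genes were higher (19%) and 5 lower (23.8%), led by erg1 (squalene monooxygenase) at -0.47. The number higher was 2 without L338R replicate 1, without L338R replicate 3 or without kcs1-WT replicate 1.

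**Figure D3:**
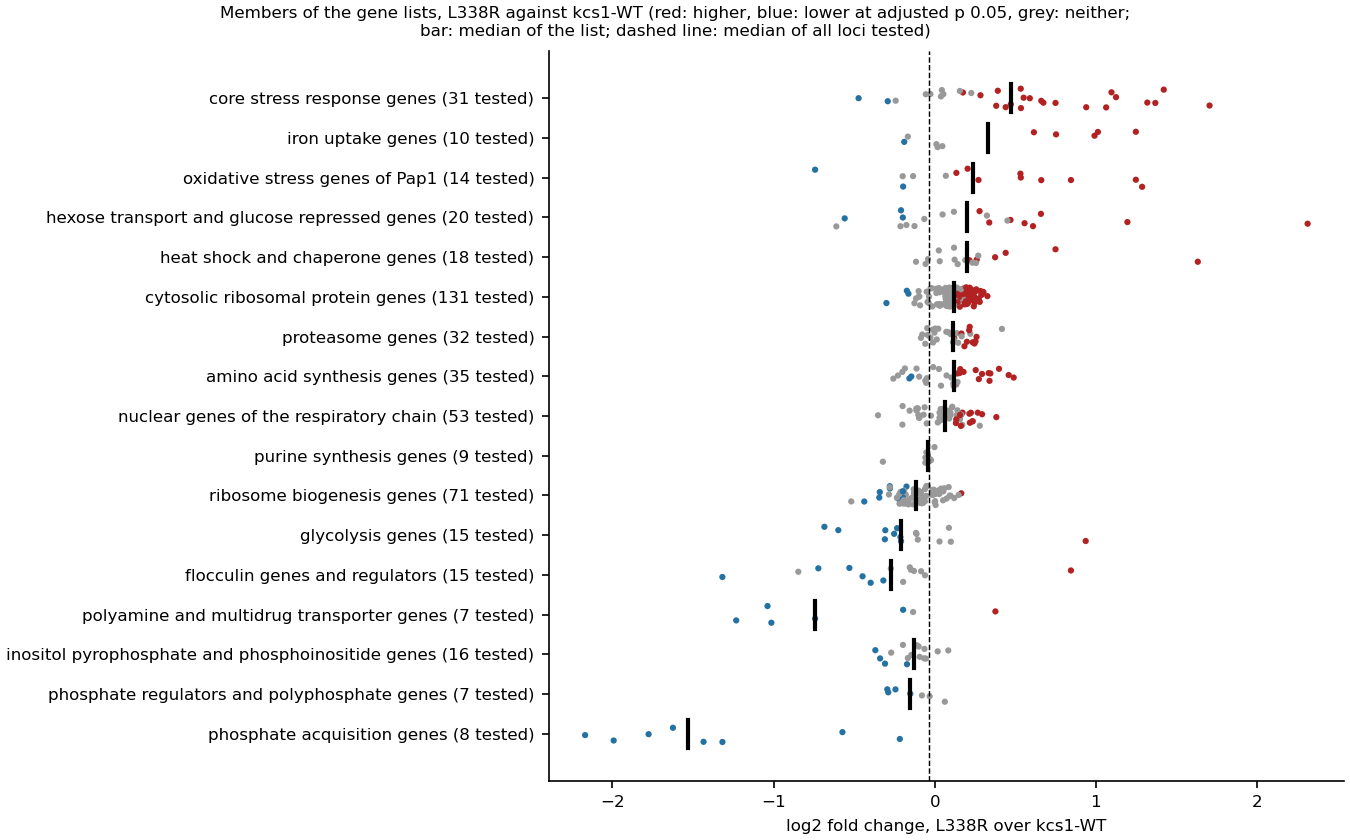
Log2 fold change of L338R over kcs1-WT for each tested member of 17 gene lists (points, jittered vertically), with the list median (bar) and the median of all loci tested, -0.04 (dashed line). Red members are higher and blue members lower at an adjusted p of at most 0.05, and grey members did not pass. The stress and iron uptake lists have the highest medians shown, 0.47 and 0.33, all phosphate acquisition members lie on the left, and no purine synthesis gene passed.

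Changes in genes of protein synthesis and turnover were small. Of 131 cytosolic ribosomal protein genes, 50 were higher (38.2%) and 3 lower (2.29%), with a median of 0.12 and no member beyond 0.33 in either direction. The largest increase was that of rpl4302, at 26734 ± 1911 in L338R and 21316 ± 1056 in kcs1-WT, and the largest decrease that of rps1401, at -0.30. This count rested on few libraries, with 17 higher without L338R replicate 3, 25 without kcs1-WT replicate 1 and 16 without kcs1-WT replicate 2, although the median stayed between 0.08 and 0.14 in those and the other alternatives. Ribosomal protein genes share near-identical copies, so reads may be split between paralogs. Of 71 ribosome biogenesis genes, 1 was higher (1.41%) and 9 lower (12.7%, against 11.5% over all loci), with a median of -0.12. Without L338R replicate 1, which was low for that list, 5 were higher and 13 lower and the median was -0.01, and without L338R replicate 2, 19 were lower. With the L338R and kcs1-WT libraries alone, 22 ribosomal protein genes, 7 respiratory genes and 9 amino acid synthesis genes were higher, and 4 ribosome biogenesis genes and 5 glycolysis genes were lower. Of 32 proteasome genes, 10 were higher (31.2%, or 6 genes without kcs1-WT replicate 2) and 0 lower, with a median of 0.12. None of 9 purine synthesis genes and 4 of 50 mitochondrial ribosomal protein genes passed (7 without L338R replicate 1, and 2, 2, 1 and 2 without L338R replicate 3 and kcs1-WT replicates 1, 2 and 3).

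Among noncoding loci the tested classes were lncRNAs (113 higher and 44 lower of 1062), small nucleolar RNAs (4 and 1 of 27), small nuclear RNAs (1 and 0 of 4) and ribosomal RNAs (0 of 21). Selection for poly(A)+ RNA removes most of the last 3 classes, so the counts read only what passed it, and no tRNA was tested. The noncoding locus with the smallest p was omt3 (SPNCRNA.130), a meiosis specific lncRNA that gathers at the Smp foci. It had 639, 505 and 580 normalized counts in L338R, against 83.9, 83.3 and 54.6 in kcs1-WT. The increase was 7.78-fold with no overlap (log2 fold change 2.96, SE 0.17, edgeR adjusted p = 4.423e-08). omt3 is the next locus upstream of mei2, on the opposite strand, so a pair of neighbours rose. A similar pair was rse1 and ste11. rse1, a lncRNA annotated as a repressor of ste11 and lying upstream of it on the opposite strand, had 1847, 1791 and 1787 in L338R, against 1455, 1300 and 1280 in kcs1-WT (log2 fold change 0.43), and both loci were higher in L338R.

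Other increases involved structured RNAs and antisense transcripts. mrp1 (SPNCRNA.82), the RNA subunit of RNase MRP, had 296, 314 and 371 normalized counts in L338R, against 87.7, 122 and 112 in kcs1-WT. snR30, a small nucleolar RNA needed for rRNA processing, had 376, 354 and 401 in L338R, against 200, 196 and 201 in kcs1-WT. Both rose in what passed poly(A) selection, by 1.61 and 0.92 on the log2 scale. SPNCRNA.719, SPNCRNA.828 and SPNCRNA.1026 rose by 1.60, 1.38 and 1.21, and SPNCRNA.887, SPNCRNA.954 and SPNCRNA.712 by 0.91, 0.84 and 0.75. SPNCRNA.1026 is antisense to the formin gene fus1, which did not pass, at 133 in L338R and 139 in kcs1-WT.

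Noncoding decreases were fewer. SPNCRNA.1471 had 214, 289 and 224 normalized counts in L338R, against 809, 973 and 874 in kcs1-WT (log2 fold change -1.87, SE 0.14, edgeR adjusted p = 3.462e-07). It lies upstream of SPBC3H7.05c on the opposite strand, and both fell. SPNCRNA.716 and SPNCRNA.1397 fell by 1.18 and 1.07. SPNCRNA.388 was at 4.16, 6.44 and 10.2 in L338R, against 335, 309 and 36.7 in kcs1-WT, so the control replicates ranged widely and replicate 3 was far below the others. SPNCRNA.388 is the next locus to mat1-Mc of the mating type region. SPNCRNA.1141, beside kcs1, fell by 1.12 at means of 21.5 in L338R and 47.1 in kcs1-WT. Of the 10 loci nearest kcs1, 1 other was lower (sec8, -0.26) and 1 was higher (rpl3601, 0.29).

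**Figure D4:**
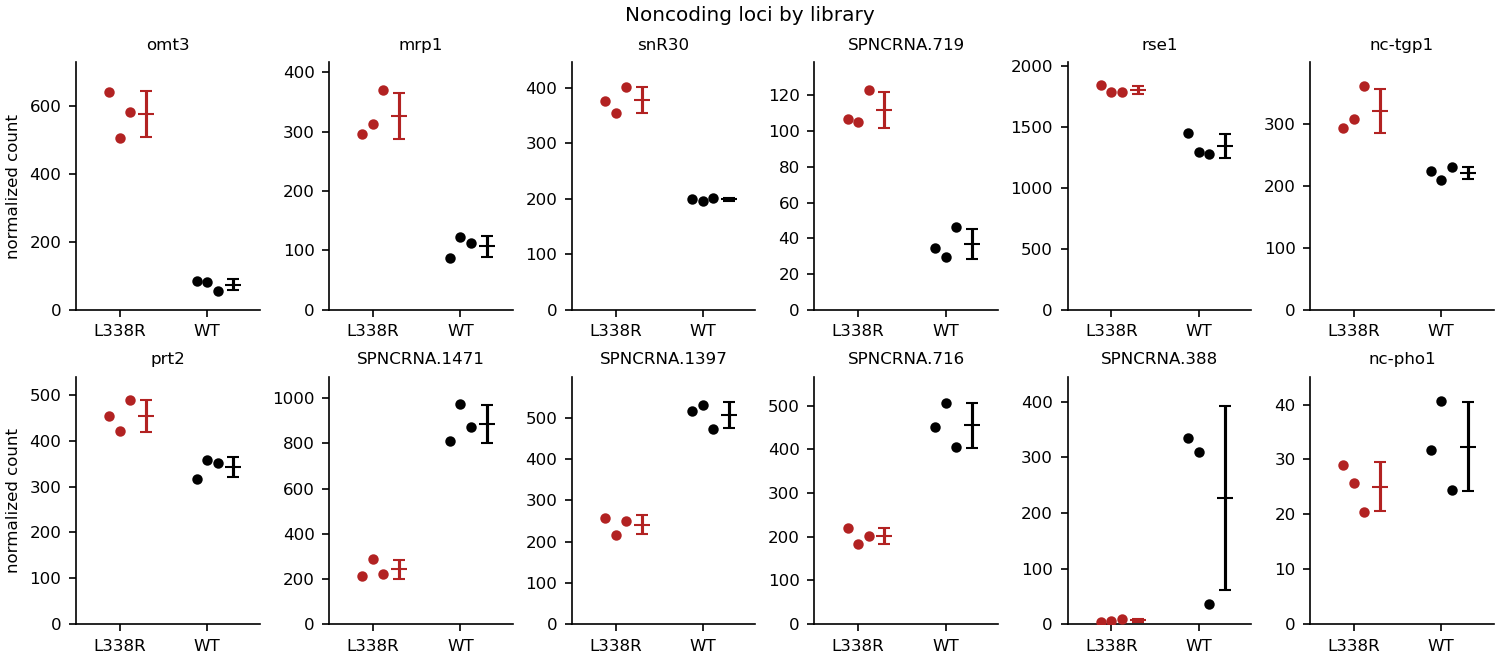
Normalized counts of 12 noncoding loci in each L338R culture (red, left) and each kcs1-WT culture (black, right), with the mean ± SD beside the points (n = 3 each) and every vertical axis starting at 0. The L338R cultures lie above all kcs1-WT cultures for the first 7 loci, from omt3 to prt2, and below them for the next 4, from SPNCRNA.1471 to SPNCRNA.388. For nc-pho1 the groups overlap, and the kcs1-WT points of SPNCRNA.388 run from 36.7 to 335.

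The position of the lncRNAs that changed was close to that of all lncRNAs tested. In the reference annotation 71.5% of tested lncRNAs overlapped a coding gene on the opposite strand, as did 74.3% of those higher and 65.9% of those lower in L338R. The coding genes opposite the 84 antisense lncRNAs that were higher showed no common direction, with 12 higher and 17 lower of 103 tested and a median of -0.10. Opposite the 29 that were lower, 7 of 33 coding genes were higher and 7 lower. Over all coding loci tested 11% were higher and 13.1% lower. Of the 69 lncRNAs that were higher and had a tested coding gene diverging from within 2000 bases, 14 had a partner that was higher (20.3%) and 11 a partner that was lower (15.9%), against 12.4% and 16.6% over the 621 such lncRNAs tested. Pairs that rose together included gdh1 with SPNCRNA.1195 (0.69 and 0.72), isp5, an amino acid transporter gene, with SPNCRNA.1086 (0.97 and 1.14), and SPAC26H5.09c with SPNCRNA.963 (0.92 and 0.66). In bfr1 and SPNCRNA.472 the gene fell by 0.74 and the lncRNA rose by 1.16. How the strand was set in counting is not given in the sources used here, and reads of a gene and its antisense partner cannot be told apart if it was not used.

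The same genes can be read in the other alleles. L338R, R332T and E834K were each set against the same kcs1-WT libraries, so the values are given side by side, and alleles were compared directly with each other. Between L338R and R332T, 1158 loci were higher in L338R (19%) and 1073 lower (17.6%). With library totals as the sole scaling those numbers were 651 and 1779, a share of 26.8% higher in place of 51.9%, as the median difference of all loci then stood at -0.12. The total of 2231 was 1280 without R332T replicate 2 and 1454 without R332T replicate 3. Phosphate genes were higher in L338R than in R332T for 7 of 8 listed. pho1 lay at a log2 fold change of -1.77 in L338R, -1.94 in E834K and -5.99 in R332T, each over kcs1-WT, and L338R was above R332T by 4.22 (interval 4.04 to 4.40 at 95%, edgeR adjusted p = 8.034e-14). pho84 lay at -1.43 in L338R, -1.46 in E834K and -4.91 in R332T. SPAC1039.02 was the exception, lower in L338R than in R332T by 0.90.

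Outside phosphate the difference between L338R and R332T took other forms. mei2 was higher in L338R (log2 fold change 1.75) and E834K (1.66) and lower in R332T (-0.85), each over kcs1-WT, with L338R above R332T by 2.61 (interval 2.39 to 2.82, edgeR adjusted p = 5.509e-10). omt3 followed the same split, at 2.96 in L338R, 2.80 in E834K and 0.18 in R332T. ste11 and spk1 were higher in L338R than in R332T by 1.16 and 0.96. The core stress list had a median of 0.47 in L338R, 0.41 in E834K and 0.05 in R332T, and in the direct contrast 20 of its 31 genes were higher in L338R than in R332T and 3 lower. hsp9 lay at 1.42 in L338R, 1.30 in E834K and 0.08 in R332T. Of 10 iron uptake genes 4 were lower in L338R than in R332T and 1 higher. Among those lower were str1, srx1 and fip1 by 1.45, 0.74 and 0.37, whereas frp1 did not pass (log2 difference -0.09). Of 21 iron regulator and iron using genes, 12 were higher in L338R than in R332T and 2 lower. Of the 16 genes called higher in L338R, 11 were above R332T, 2 below and 3 did not pass, and of the 23 called lower, 6 were above, 13 below and 4 did not pass. The genes lower in L338R than in R332T included nap1 (-1.27), bfr1 (-0.94), gdt1 (-5.69) and SPAC750.01 (-6.81), and in R332T gdt1 was at 3018 and SPAC750.01 at 560 normalized counts.

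**Figure D5:**
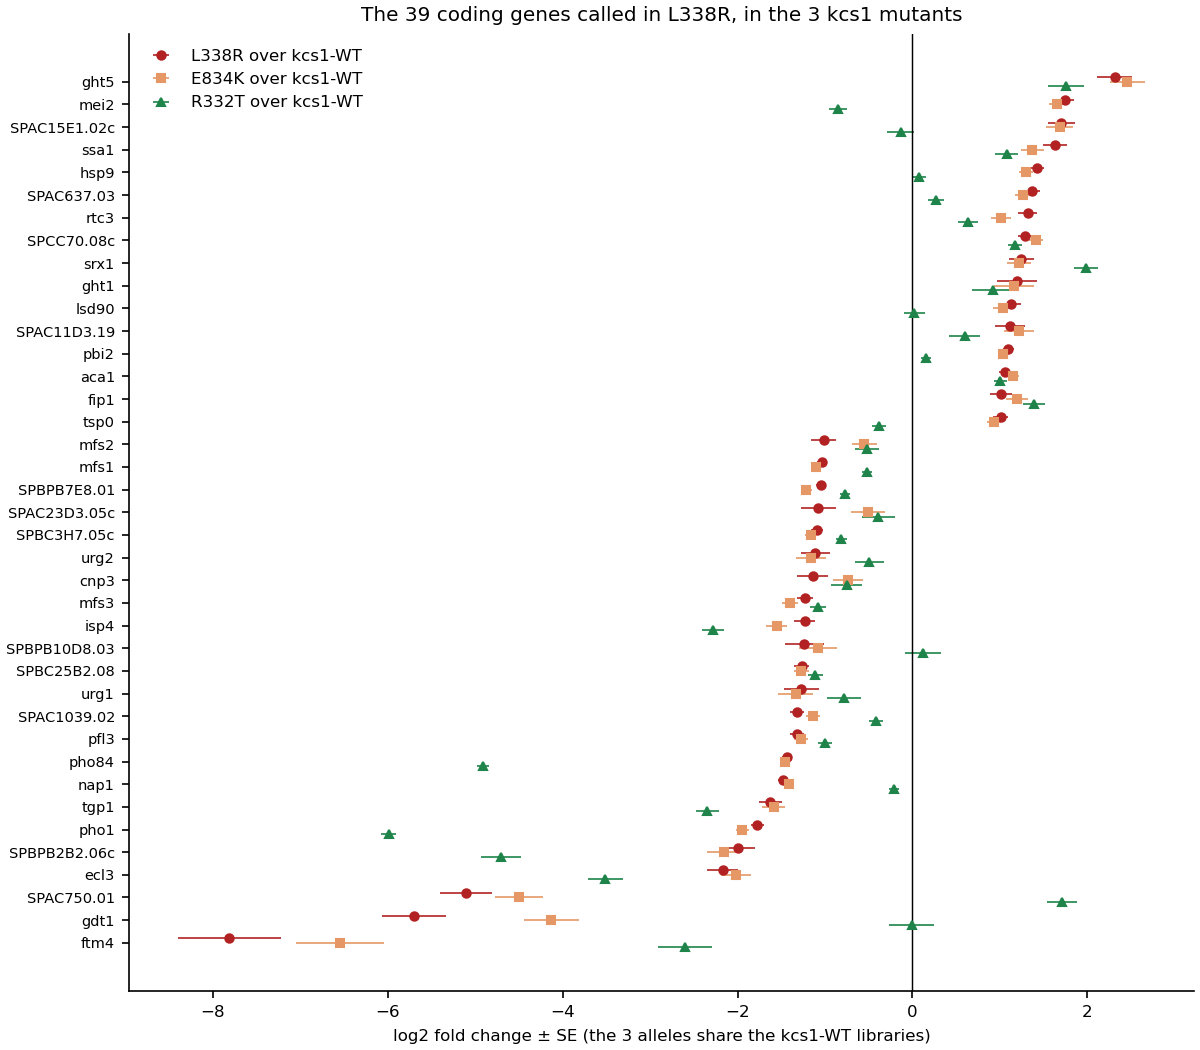
Log2 fold change over kcs1-WT ± SE of the 39 coding genes called in L338R, in L338R (red circles), E834K (orange squares) and R332T (green triangles), all from the same kcs1-WT libraries. Orange squares lie close to the red circles for most genes, whereas green triangles lie far to the left for pho1 and pho84 (-5.99 and -4.91) and on the other side of 0 for mei2 (-0.85) and SPAC750.01 (1.71). The fitted fold of ftm4 rests on 1 to 3 reads in some groups and depends on the prior count.

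Between L338R and E834K, 0 of 6093 loci passed (0%) in the edgeR quasi-likelihood test, with a smallest adjusted p of 0.2731, while 893 had an unadjusted p under 0.05. DESeq2 called 16 loci (13 higher and 3 lower in L338R), the fit with a replicate block called 45, and leaving out L338R replicate 2 gave 603. The count was 1 without L338R replicate 3 and 1 without E834K replicate 1. The median SE was 0.10 in each contrast, which the fit nearly fixes, since all groups share its estimate of the spread at each locus. It therefore does not measure the spread particular to L338R, and small differences from E834K may have been missed. The median size of the difference over all loci was 0.11 against E834K, 0.21 against R332T and 0.15 against kcs1-WT. For the 39 called genes the differences between L338R and E834K ran from -0.18 to 0.31 among those higher and from -1.57 to 0.32 among those lower. The interval for pho84 was -0.10 to 0.15 and for mei2 -0.10 to 0.29, so differences of that size are not excluded. gdt1 was the called gene with the largest difference, at 41.6, 62.3 and 71.3 normalized counts in L338R and 42.2, 260 and 214 in E834K (interval -2.51 to -0.63 for the log2 difference, edgeR adjusted p = 0.2997), with 1 E834K culture inside the L338R range.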

How the data were processed

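Poly(A)+ RNA from log-phase YES cultures was sequenced as paired 51-base reads, with 3 biological replicates per strain by the labels. The deposited table gives for every locus the count of reads assigned to it, without normalization. For alignment and counting the authors used HISAT2 2.1.0, SAMtools and HTSeq 0.10.0 with genome ASM294v2. The strand setting of HTSeq is not given in the sources used here, and the labels name a different library kit from the study's methods. The authors' DESeq2 comparison table (fold changes and p-values) was not used, and 0 columns of other series were met. The p-values measure the spread between cultures of 1 strain per allele. Of 6988 counted loci, 382 had no count in any of the 12 kcs1 libraries and 6836 matched the RefSeq gene table of assembly ASM294v3, which served for names, classes and neighbours only.

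Counts of the 12 kcs1 libraries were fitted together in R 4.3.3 with edgeR 4.0.16 (filterByExpr by group, TMM factors, quasi-likelihood test, prior count 0.125, Benjamini-Hochberg adjustment over 6093 loci per contrast, 8 residual degrees of freedom). SE is the absolute log2 fold change over the square root of F. Calls of coding genes needed an adjusted p no higher than 0.05, a change of 2-fold or more and a group mean of 100 or more normalized counts. Intervals are at 95% from the same fit and cover no adjustment for many tests. Gene lists are described by counts and medians. The members and lists were chosen with earlier results of these data known. Named loci were kcs1 and asp1, the phosphate genes and lncRNAs, the called coding genes at both extremes, the loci with the smallest p of each class and direction, up to 4 members of each list and the leading loci of each allele contrast. Genes named beyond these, and the divergent pairs, were chosen after their values were seen. Code was tested on simulated data. Alternatives were DESeq2 1.42.0, its size factors in edgeR, library totals, no filter, L338R and kcs1-WT alone, a replicate block and each replicate left out. Same-numbered L338R and kcs1-WT libraries deviated together over loci (r = 0.365, 0.152 and 0.122), and 1 pair with different numbers, kcs1-WT replicate 3 and L338R replicate 2, reached 0.163. The fit reported has no replicate block, and the block is given where it changes a call. No duplicate libraries were found.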

Additional observations from a re-analysis of the deposited data

How the results depend on the processing

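With the L338R and kcs1-WT libraries alone, 387 loci were higher and 242 lower in L338R, of which 73 and 15 were noncoding, and with a replicate block added to that fit, an alternative chosen after seeing the data, 29 noncoding loci were lower. These fits have fewer samples from which to estimate the spread. Without the minimum of 100 counts, 33 coding genes were called higher. Leaving out each replicate in turn gave 444 to 799 loci higher, 449 to 972 lower, 90 to 156 noncoding loci higher, 22 to 52 noncoding loci lower, 13 to 20 coding genes called higher and 18 to 24 called lower. The contrast with R332T then ran from 1280 to 3010 loci and that with E834K from 0 to 603. Against E834K, DESeq2 gave 16 loci and the replicate block 45. The block in all 12 libraries (723 higher and 837 lower) brought ade9 and dcp2 past the threshold, at log2 fold changes of -0.32 and -0.21, and changed no other call of a named locus. No named locus that passed in any setting changed direction between settings. Low counts limit the noncoding loci most, where small changes are hard to detect at this depth.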
